A study of Equus caballus with 10 samples.

Results

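The endothelin system was followed in equine tenocytes through 6 genes chosen by symbol. These were the peptide genes EDN1, EDN2 and EDN3, the receptor genes EDNRA and EDNRB, and ECE1, the gene of endothelin-converting enzyme 1. All 6 were found among the 29196 genes of the deposited table. The list was drawn up with earlier results of the same comparison known, so the values of its members are a description. Adjusted p-values are printed only to show where each gene stood in the fit over the whole table, and they are not independent support for the choice of genes.

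Endothelins are short vasoconstrictor peptides that are cut from larger precursors, first by convertases of the furin type and then by the membrane protease ECE1. They act on the G protein-coupled receptors EDNRA and EDNRB. EDNRA prefers endothelin-1 and endothelin-2 and couples to contraction of smooth muscle, while EDNRB binds all 3 peptides alike and on endothelium couples to nitric oxide release and to removal of endothelin-1 from the circulation. Fibroblasts of connective tissue are known to respond to endothelin-1 by contracting collagen lattices and depositing matrix.

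Primary tenocytes of 5 adult horses, called lines 1 to 5 here, were grown for 14 days in 3D gels of bovine type I collagen. One group received only PF-06650833, an inhibitor of the IL-1 receptor-associated kinase IRAK-4, at 100 nM every day. The other received the same inhibitor and IL-1β, an inflammatory cytokine, at 17 ng/ml every 3 to 4 days. Each line gave 1 library to each group, from several gels joined, and since every library analysed here had received PF-06650833, the effect of IL-1β was measured only in its presence. The groups are called the inhibitor group (PF-06650833 alone in the plots) and the IL-1β group (IL-1β plus PF-06650833 in the plots).

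Expression is given as the variance-stabilized log2 value deposited by the authors, on which 0 reads have the value 3.433, and as the normalised count recovered from it, which is scaled between libraries but not to transcript length. Levels of different genes were therefore not read as relative amounts of transcript. Differences between genes and sums over genes serve only to compare the groups, and a share of a sum is a share of counts. The estimated depth was 26419161 to 35767674 reads on genes per library of the inhibitor group, and 26708240 to 33387441 per library of the IL-1β group. Libraries of a group correlated at 0.977 or higher across genes. A gene was called at an adjusted p below 0.05 by limma, with Benjamini-Hochberg adjustment over the 17992 genes with reads in at least 5 of the 10 libraries, and a change of at least 1 on the log2 scale in either direction. By this rule 6.68% of tested genes were called, 3.11% higher and 3.57% lower with IL-1β. With the tenocyte line as a replicate block the shares were 8.26% in all, 4.01% higher and 4.25% lower. Over the tested genes the median change was -0.01. The tendon label was checked against 12 markers, 11 of which had a row. COL1A1 and COL1A2, the genes of type I collagen, lay between 93200 and 746000 normalised counts in every library, while TNMD, the gene of tenomodulin, had 0 reads in all 10.

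Both endothelin receptors and the converting enzyme were higher in the IL-1β group than in the inhibitor group, in all 5 lines and with no overlap between the groups. EDNRB differed most, at 368 normalised counts on average against 10203, EDNRA was at 924 against 4832, and ECE1 at 2250 against 7680. None of the peptide genes was called. EDN1 was the only one with more than a few reads in every library, and its groups overlapped. Of the 6 genes, 5 were tested and 3 were called, all of them higher, against the 6.68% of all tested genes, and nothing is read from this count because the list was made with the comparison known. The same 3 genes were called with the replicate block. They also had groups that did not overlap, as did 12.7% of all tested genes, 6.29% with the IL-1β group higher.

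**Figure D1:**
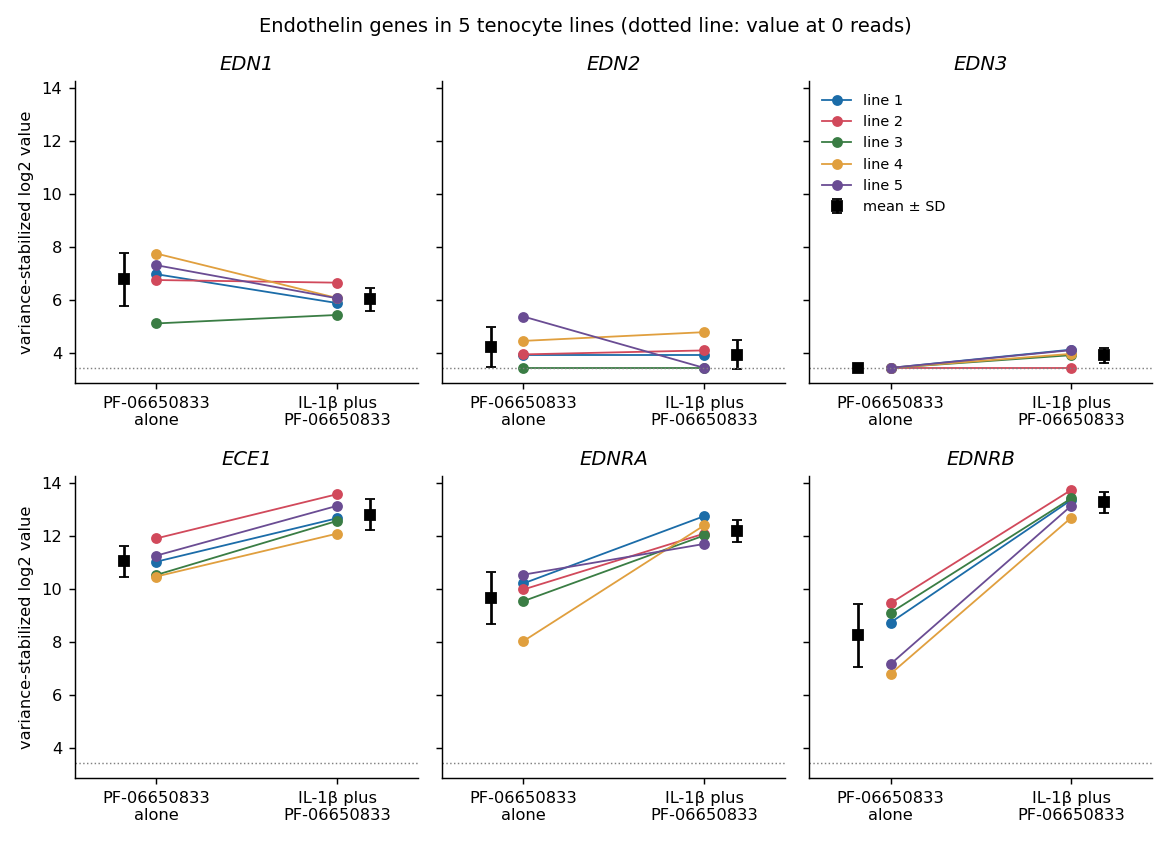
Variance-stabilized log2 values (vertical axis) of the 6 endothelin genes in the libraries of the inhibitor group and of the IL-1β group, with 1 colour per tenocyte line and a line joining the 2 libraries of the same horse. Black squares and bars are the mean and SD of 5 libraries, and the dotted line is the value of 0 reads. ECE1, EDNRA and EDNRB were higher with IL-1β in every line, EDN1 was lower in lines 1, 2, 4 and 5, and EDN2 and EDN3 lay close to 0 reads.

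EDNRB encodes the receptor that takes all endothelins alike. In the inhibitor group its normalised counts were 406, 689, 531, 90.9 and 123 in lines 1 to 5. In the IL-1β group they were 10600, 13742, 10984, 6619 and 9072. Lines 4 and 5 were the lowest in both groups, line 2 was the highest in both, and the groups lay far apart. The log2 value averaged 8.26 ± 1.20 in the inhibitor group and 13.28 ± 0.39 in the IL-1β group (SD, n = 5 each). The fitted log2 difference was 5.02 with a standard error of 0.48 (adjusted p = 1.71e-04 by limma). That was the 18th largest rise among the 17992 tested genes, and 0.0945% of them had a larger one.

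The size of the EDNRB difference varied between the horses. The normalised count was 26.1, 20.0, 20.7, 72.8 and 73.7 times higher with IL-1β in lines 1 to 5. The ratio was largest in lines 4 and 5, the lines with the fewest EDNRB reads without IL-1β, and on the log2 scale the SD between lines was 0.39 with IL-1β and 1.20 without it. The order of the lines, from line 2 through lines 3, 1 and 5 to line 4, was identical in the 2 groups.

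EDNRA encodes the receptor through which endothelin-1 contracts smooth muscle. Its normalised counts were 1175, 998, 728, 242 and 1479 in lines 1 to 5 in the inhibitor group, and 6907, 4359, 4165, 5409 and 3321 in the IL-1β group. The groups did not overlap, and the lowest library, that of line 4 without IL-1β, belonged to the line that was second highest with IL-1β. The log2 value averaged 9.67 ± 0.98 in the inhibitor group and 12.20 ± 0.40 in the IL-1β group (SD, n = 5 each), and the fitted difference was 2.53 with a standard error of 0.41 (adjusted p = 0.00246 by limma).

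Line 4 and line 5 stood at opposite ends for EDNRA. The normalised count was 22.4 times higher with IL-1β in line 4 and 2.24 times higher in line 5, and in lines 1, 2 and 3 it was 5.88, 4.37 and 5.72 times higher. Line 5 had the highest EDNRA count of its group without IL-1β and the lowest with it, so the order of the lines was not kept as it was for EDNRB. When the library of line 4 in the inhibitor group was left out, the log2 fold change of EDNRA was 2.12 (standard error 0.24), and when both libraries of line 5 were left out it was 2.87 (standard error 0.42). EDNRA was called in each of those fits.

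**Figure D2:**
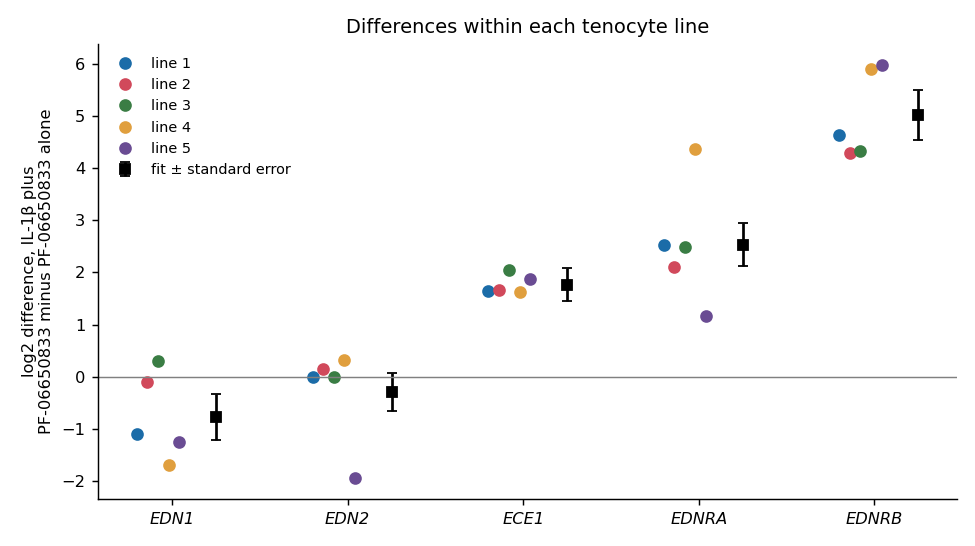
Difference in log2 value between the IL-1β group and the inhibitor group within each tenocyte line (coloured points), beside the fold change and standard error of the fit over all libraries (black squares), for the 5 tested endothelin genes. The 5 lines lay within 1.62 to 2.04 for ECE1, spread from 1.16 to 4.37 for EDNRA and from 4.28 to 5.98 for EDNRB, and fell on both sides of 0 for EDN1.

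Since the length of each gene weighs on both groups alike, the difference between both receptors within a library can be followed between the groups. The log2 value of EDNRB minus that of EDNRA was -1.49, -0.52, -0.44, -1.24 and -3.38 in lines 1 to 5 in the inhibitor group. In the IL-1β group it was 0.62, 1.65, 1.39, 0.29 and 1.44. It was negative in every library without IL-1β and positive in every library with it. The change within a line was 2.10, 2.17, 1.83, 1.53 and 4.83 on the log2 scale, with a mean of 2.49 ± 1.33 (SD, n = 5), and line 5 was the highest. The point at which this difference crosses 0 has no meaning by itself, since the values are not corrected for length, and no p is given for a measure made from chosen members.

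**Figure D3:**
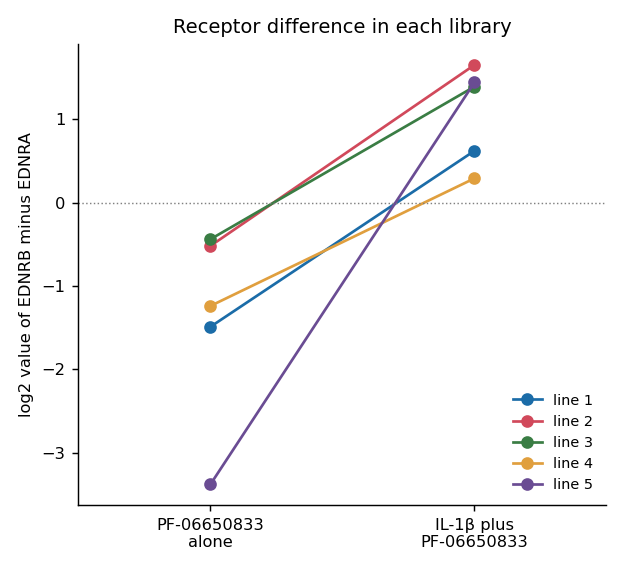
Log2 value of EDNRB minus that of EDNRA (vertical axis) in each library of the inhibitor group and of the IL-1β group, joined by tenocyte line. The values ran from -3.38 to -0.44 without IL-1β and from 0.29 to 1.65 with it, and all 5 lines moved upward.

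ECE1 encodes the protease that releases the active peptide from big endothelin. Its normalised counts were 2081, 3847, 1465, 1402 and 2456 in lines 1 to 5 in the inhibitor group and 6542, 12298, 6102, 4363 and 9092 in the IL-1β group. The groups did not overlap, and the order of the lines, from line 2 through lines 5, 1 and 3 to line 4, was identical in both. The log2 value averaged 11.05 ± 0.59 in the inhibitor group and 12.82 ± 0.57 in the IL-1β group (SD, n = 5 each), and the fitted difference was 1.77 with a standard error of 0.32 (adjusted p = 0.00425 by limma).

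Among the called members, the difference in ECE1 varied least between horses. The normalised count was 3.14, 3.20, 4.17, 3.11 and 3.70 times higher with IL-1β in lines 1 to 5. The differences between the horses themselves were larger than this range, since line 2 held more than double the count of lines 3 and 4 in either group. With the tenocyte line as a block in the fit, the standard error of ECE1 was 0.09 in place of 0.32 at the same fold change (adjusted p = 1.20e-04 by limma). The block moved the standard error of EDNRA much less, from 0.41 to 0.38.

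EDN1 encodes the precursor of endothelin-1, the main vasoconstrictor of the family. Its normalised counts were 105, 86.8, 16.4, 195 and 138 in lines 1 to 5 in the inhibitor group, and 39.2, 80.2, 24.1, 47.1 and 47.0 in the IL-1β group. The groups overlapped through line 3, which had the fewest EDN1 reads in both groups and was the only line with a higher value with IL-1β. The normalised count averaged 108 in the inhibitor group and 47.5 in the IL-1β group. On the log2 scale the means were 6.78 ± 1.00 and 6.02 ± 0.44 (SD, n = 5 each), and the fitted difference was -0.76 with a standard error of 0.44 (adjusted p = 0.28 by limma). The gene was not called, and with the replicate block its adjusted p was 0.116.

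The result for EDN1 depended on line 3. Without the library of line 3 in the inhibitor group, the log2 fold change was -1.18 (standard error 0.29, adjusted p = 0.0233 by limma) and the gene was called as lower. Without both libraries of line 3 it was -1.03 (standard error 0.28, adjusted p = 0.0375). Without the library of line 4 in the inhibitor group, the highest of its group, it was -0.52 (standard error 0.43, adjusted p = 0.494). In lines 1, 4 and 5 the normalised count with IL-1β was 0.373, 0.242 and 0.342 times that without it, and in line 2 it was 0.923 times.

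EDN2 and EDN3 encode the precursors of endothelin-2 and endothelin-3. EDN2 had an estimated 1, 1, 0, 5 and 22 reads in lines 1 to 5 in the inhibitor group and 1, 2, 0, 7 and 0 reads in the IL-1β group. Its highest value came from line 5 without IL-1β, and the same line had 0 reads with it. The log2 value averaged 4.22 ± 0.74 against 3.93 ± 0.56 (SD, n = 5 each). The fitted difference, -0.29 with a standard error of 0.37 (adjusted p = 0.66 by limma), was 0.12 once line 5 was left out, so no direction is given for EDN2. EDN3 had 0 reads in all 5 libraries in the inhibitor group and 2, 0, 1, 1 and 2 reads in the IL-1β group, and it was left out of the fit by the filter on low values. These numbers were not above the 3 reads per library that a count of 0 allows, so no difference is read for EDN3. In a fit without the filter its log2 difference was 0.47 with a standard error of 0.14 (adjusted p = 0.0438 by limma), under the minimum for a call. That p rests on 1 or 2 reads in each of 4 libraries, against equal values in the whole inhibitor group, and nothing is read from it. The limit of 3 reads covers counting error only, and reads per gene were estimated from the spacing of the lowest values in each library.

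**Figure D4:**
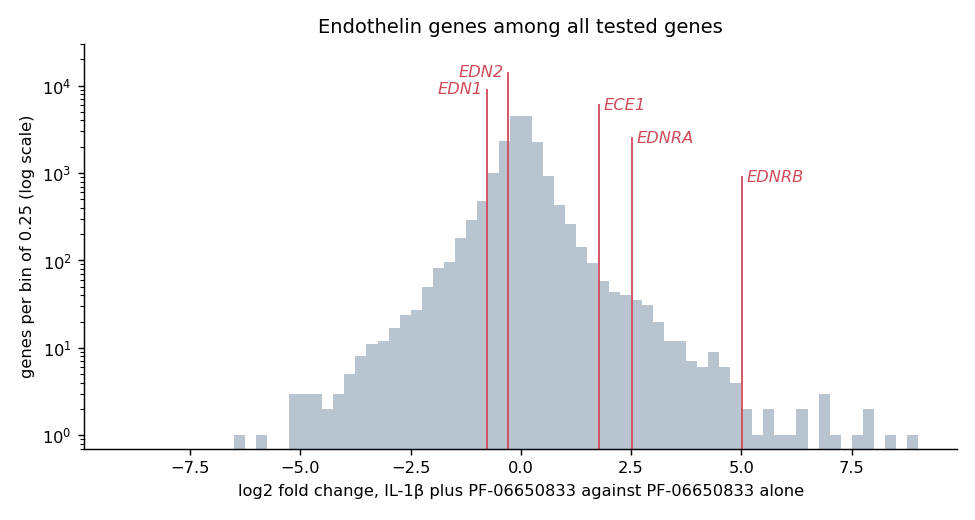
Number of tested genes (vertical axis, log scale) by log2 fold change between the IL-1β group and the inhibitor group (horizontal axis), with the 5 tested endothelin genes marked by vertical lines. EDNRB at 5.02 lay far in the upper tail, EDNRA at 2.53 and ECE1 at 1.77 on its upper slope, and EDN1 at -0.76 and EDN2 at -0.29 within the bulk of the genes.

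Against the whole table, 0.861% of tested genes had a larger log2 difference than EDNRA and 1.63% than ECE1. EDN1 ranked 16724th of 17992 when genes were ordered from the largest rise downward. The median of the 5 tested members was 1.77 on the log2 scale, beside -0.01 for the whole table. A higher or lower signal of a gene in bulk RNA can come from the number of cells of a type or from RNA per cell. These cannot be told apart for any member.

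The genes whose values ran most like those of each member were searched among 11282 other genes with a symbol and a mean log2 value of at least 6. Over the 10 libraries, the closest to EDNRB were ABCA1, a cholesterol exporter (Pearson r = 0.989), PIP5K1A, a lipid kinase (r = 0.989), and PLA2G4A, a phospholipase that frees arachidonic acid (r = 0.988). For EDNRA they were NOTUM, a secreted inhibitor of WNT proteins (r = 0.964), TCIM (r = 0.963) and the cyclic AMP phosphodiesterase gene PDE4D (r = 0.963). ECE1 was closest to PDK4, a kinase that restrains pyruvate dehydrogenase (r = 0.986), the gap junction gene GJC1 (r = 0.978) and LMBR1L (r = 0.973). The genes nearest to EDN1 were EIF4B, a translation initiation factor (r = 0.963), C7H11orf1 (r = 0.949) and SMAP2 (r = 0.943). The points of these correlations share the division into groups, and EIF4B, SMAP2 and PIP5K1A had log2 fold changes of -0.24, -0.27 and 0.37 only.

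With the group means subtracted, so that differences between the horses remain, other genes came first. ECE1 was closest to GUCY1B1, a subunit of the nitric oxide receptor guanylate cyclase (r = 0.988), EDNRB to ZNF326 (r = 0.983) and to the matrix protease gene MMP14 (r = 0.969), EDNRA to FMO4 (r = 0.935) and EDN1 again to EIF4B (r = 0.954). Among the members themselves, EDNRB and ECE1 had r = 0.458, EDNRA and EDNRB r = 0.355, and EDN1 and EDNRB r = -0.578. Over the 10 libraries with the groups left in, EDNRA and EDNRB had r = 0.892. All of these are descriptions over 10 libraries from 5 horses. The closest genes were picked as the highest of 11282, so nothing is read from how high their r was. For EDNRB the SD was 1.20 in the inhibitor group and 0.39 in the IL-1β group, so its deviations came mostly from the inhibitor group.

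The wider pathway was read from lists of its known parts, whose counts stand beside the 6.68% of all tested genes that were called. Counts with the replicate block stand beside the 8.26% called with it. Of 11 genes that process or degrade endothelins, 8 were tested and 1 was called, which was PCSK6. PCSK6, a furin-like convertase, fell by 1.95 on the log2 scale (standard error 0.34, adjusted p = 0.00396 by limma), in all 5 lines. The main convertase FURIN was at 12.27 ± 0.32 (SD, n = 5) against 12.49 ± 0.16 (SD, n = 5), and ECE2, the relative of ECE1, at 9.73 ± 0.22 against 9.74 ± 0.21, with log2 fold changes of 0.21 and 0.00. The standard error for ECE2 was 0.14. MME, the gene of neprilysin, which degrades endothelin-1, was at 7.60 ± 1.49 against 6.60 ± 1.20 and was not called (adjusted p = 0.407). With the replicate block 2 genes were called, PCSK6 and the convertase gene PCSK5 (log2 fold change 1.08, adjusted p = 0.0238 with the block and 0.0692 without).

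Downstream of the receptors, 2 of 26 tested genes of G proteins and their effectors were called, 1 in each direction, with a median log2 fold change of -0.14. PLCB1, a phospholipase C that Gq proteins activate, rose by 1.80 (standard error 0.34, adjusted p = 0.00542 by limma). ITPR1, the calcium release channel opened by its product, was called as lower at -1.09 (standard error 0.25, adjusted p = 0.0135). The call of ITPR1 rested on single libraries, since without line 4 or line 5 of the inhibitor group, or line 1 of the IL-1β group, its log2 fold change was -0.97, -0.93 and -0.99 and under the minimum. It was also lost without both libraries of line 2 or of line 5. Another 5 genes passed the adjusted p without reaching the minimum fold change, so that 7 passed it in all, 3 higher and 4 lower. Of all tested genes, 15.5% passed the adjusted p alone. The 5 genes under the minimum fold change are named after their values were seen. Lower were ROCK2 (log2 fold change -0.86, adjusted p = 8.31e-04), a kinase that sustains contraction, GNAQ (-0.86, adjusted p = 0.00714), the gene of the Gq protein, and the phospholipase C gene PLCB3 (-0.43, adjusted p = 0.0238). Higher were the calcium channel gene ITPR2 (0.74, adjusted p = 0.0371) and ARHGEF11 (0.53, adjusted p = 0.0143), an activator of RHOA. RHOA was at 14.10 ± 0.11 (SD, n = 5) against 14.11 ± 0.24 (SD, n = 5).

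Of 11 genes that switch off such receptors, all 11 were tested and 2 were called, RGS2 as higher and RGS5 as lower. Both genes encode proteins that speed up GTP hydrolysis by G proteins. RGS5 fell by 1.96 (standard error 0.42, adjusted p = 0.0106 by limma) and RGS2 rose by 1.80 (standard error 0.54, adjusted p = 0.0456). The groups overlapped for RGS2, and its call was lost in 7 of the 10 fits that left out 1 library, namely lines 2, 4 and 5 in the inhibitor group and lines 1, 2, 3 and 5 with IL-1β, with fold changes of 1.32 to 1.94. The call of RGS5 held in all 10, but not when both libraries of line 1, 2 or 5 were left out (log2 fold changes of -2.01, -1.79 and -1.68). With the replicate block 4 of the 11 genes were called, RGS4 (log2 fold change 1.52, adjusted p = 0.0287) and the arrestin gene ARRB1 (-1.10, adjusted p = 0.046) in addition.

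Among 18 tested regulators known to act on the EDN1 promoter, 6 were called, 4 higher and 2 lower, where 3.11% and 3.57% of all tested genes were called in these directions. The median log2 fold change of the list was 0.07. NFKB1, a subunit of NF-κB, rose from 10.82 ± 0.21 (SD, n = 5) to 11.97 ± 0.23 (SD, n = 5) with an adjusted p of 4.36e-04 by limma. GATA2 rose by 1.91 (standard error 0.26, adjusted p = 9.72e-04) and FOSL1, a subunit of AP-1, by 1.40 (standard error 0.20, adjusted p = 0.0012). GATA6 fell by 2.04 (standard error 0.27, adjusted p = 9.26e-04). It had few counts, 24.0 to 87.1 normalised counts without IL-1β and 0 to 6.0 with it. Its fold change ran from -4.51 to -2.01 over the alternatives that kept all libraries, so its size depended on the processing. EPAS1 (1.54) and KLF4 (-1.05) were the other genes called. JUN was at 13.06 ± 0.50 (SD, n = 5) against 12.98 ± 0.42 (SD, n = 5) and SMAD3 at 13.46 ± 0.26 against 13.69 ± 0.38, and neither was called. These genes are known inputs of many promoters, and EDN1 itself was not called.

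Genes of contraction and matrix that endothelin-1 is known to raise in fibroblasts numbered 15 in the fit, of which 2 were called. FN1, the gene of fibronectin, was called as lower (log2 fold change -1.41, standard error 0.40, adjusted p = 0.0369 by limma), and TIMP1, an inhibitor of matrix proteases, as higher (1.31, standard error 0.39, adjusted p = 0.045). The call of FN1 was lost in 7 and that of TIMP1 in 9 of the 10 fits that left out 1 library. FN1 was kept only without line 3 in the inhibitor group, or line 3 or 4 with IL-1β, and TIMP1 only without line 4 with IL-1β. The median log2 fold change of the 15 genes was -0.54. ACTA2, the gene of smooth muscle actin, was at 15.94 ± 1.24 (SD, n = 5) against 14.92 ± 0.56 (SD, n = 5), with an adjusted p of 0.227. CTGF was at 12.13 ± 1.07 against 11.59 ± 0.54. With the replicate block 5 of the 15 genes were called, ACTA2 (log2 fold change -1.01, adjusted p = 0.0334), COL1A1 (-1.38, adjusted p = 0.0147) and COL1A2 (-1.28, adjusted p = 0.0169) as lower in addition to FN1 and TIMP1.

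**Figure D5:**
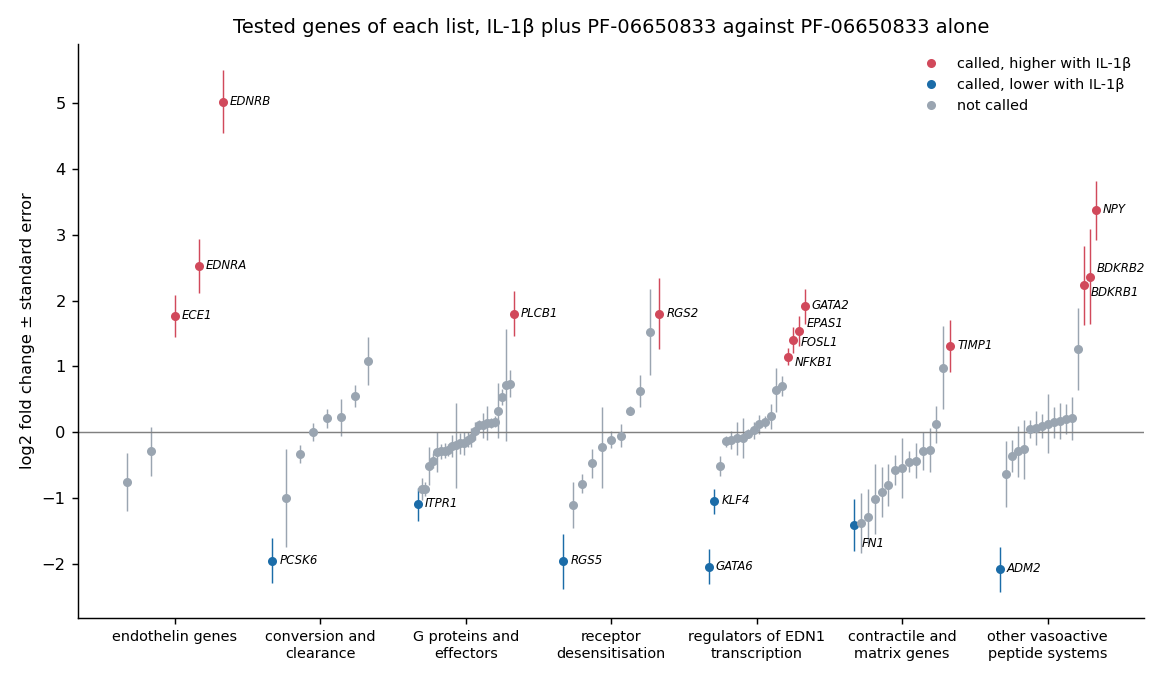
Log2 fold change and standard error (vertical axis) of each tested gene of the endothelin list and of 6 lists around it, with genes called as higher in the IL-1β group in red, genes called as lower in blue and all others in grey. EDNRB, at 5.02, lay above every other gene shown, and the genes called around it went in both directions.

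Markers of other cells that make or bind endothelins were examined beside these results. Of 10 endothelial markers, SOX17 had 0 reads in all libraries, and PECAM1, CDH5, VWF, TEK, TIE1, KDR, CLDN5 and EMCN had at most 37.2 normalised counts in any library. The summed endothelial markers lay between 232 and 715 normalised counts in the inhibitor group and between 46.1 and 106 in the IL-1β group. Nearly all of that sum was the transcription factor gene ERG, which fell by 2.68 on the log2 scale (standard error 0.30, adjusted p = 3.89e-04 by limma). Of the other tested endothelial markers none was called. PECAM1 and TEK had log2 fold changes of 0.67 and 0.51, and VWF, KDR and CLDN5 of -0.73, -0.34 and -0.53.

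Pericyte and smooth muscle markers, cells in which EDNRA is abundant, were detected. Their sum over the 7 of 8 markers with a row was 3993 to 37573 normalised counts without IL-1β and 4854 to 13498 with it, and these ranges overlapped. MYH11 alone had 1100 to 32500 normalised counts without IL-1β and 3720 to 12100 with it. CSPG4 (log2 fold change -1.84), DES (-2.98) and RGS5 (-1.96) were called as lower by limma and none of the 7 as higher. Of those not called, MCAM (0.34) and ABCC9 (1.02) had higher means in the IL-1β group, and NOTCH3 (-0.61) and MYH11 (-0.56) lower ones. Another row of ABCC9, labelled ABCC9_1 and not in the list, was called as higher (log2 fold change 2.67, standard error 0.42, adjusted p = 0.00218 by limma). Leukocyte markers summed to 222 to 1978 without IL-1β and 345 to 2149 with it, with CD3E and MS4A1 at 0 reads in all libraries and CD68 called as higher (1.70, adjusted p = 0.00795). Neural crest, glial and melanocyte markers, the lineages that depend on EDN3 and EDNRB in development, summed to 724 to 1108 against 206 to 473, with TYR at 0 and SOX10 at no more than 7.96 normalised counts. MITF, which makes up most of that sum, fell by 1.34 (standard error 0.24, adjusted p = 0.00447). Of 6 epithelial markers, EPCAM and KRT5 had 0 reads in all libraries, and the sum, which is mostly CDH1 (log2 fold change -2.22, adjusted p = 0.0136), was 539 to 1574 against 45.4 to 444. The tendon markers summed to 971171 to 1564035 without IL-1β and 300468 to 1275842 with it, with SCX (-3.24), MKX (-2.85), COMP (-3.63) and TNC (-2.04) called as lower and none of the 10 tested as higher. Of the tendon markers not called, DCN (log2 fold change 1.01, adjusted p = 0.268) and LUM (0.33, adjusted p = 0.693) had higher means in the IL-1β group, and COL1A1, COL1A2, FMOD and THBS4 lower ones. Without both libraries of line 5, COMP, TNC, CDH1 and CD68 were not called (-3.24, -1.77, -2.06 and 1.51), nor was COMP without line 2 (-3.13) or CDH1 without line 1 (-2.22). The part of these shifts in the receptor and ECE1 values was not tested.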

How the data were processed

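RNA from 5 tenocyte lines under 2 conditions was sequenced by the authors. Per the labels and the study's methods, reads were checked with FastQC (0.11.9), quantified by Salmon (1.8) against transcripts of EquCab3.0, adjusting for GC content, summed to genes with tximport and analysed with DESeq2 (1.36). The authors deposited log2 values per gene and library. The transformation is not named, and was taken as variance stabilization from the shared lowest value of 3.433, which allowed normalised counts to be recovered by inverting it. The depth is estimated from their spacing. No column of values was left unused (0).

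Genes with reads in 5 or more of the 10 libraries, 17992 in all, were fitted with limma (3.58.1, R 4.3.3) with a mean-variance trend and without a donor term, as the study names none. In counts simulated without differences between horses, 65 of 68 genes with a true log2 change of size 1.5 were called in its direction. Of 17792 unchanged genes, 0 were called. The changed genes were drawn only from genes above a minimum mean count. The spread between simulated libraries was a setting and was not taken from these data, so the shares do not carry over to them. Such counts hold no pairing of libraries, so they do not test the fit on libraries paired by horse. Libraries of the same horse share a replicate number, and their deviations from the group means correlated across genes at 0.367 to 0.506, against -0.266 to 0.087 for different horses, so a fit with the replicate block was made beside it. Libraries within a group come from separate horses, while each horse gave a library to both groups, so p-values without the block treat paired libraries as independent.

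The members, the lists of pathway genes and cell markers, and the tests were chosen with earlier results of these data known. Named were the 6 members, at most 4 called genes of each list by adjusted p, and the 3 genes most alike to each member by Pearson correlation. Other genes are named for context. CCN2 stands in the table as CTGF, and listed genes with no row were not analysed here. The 6 members matched RefSeq symbols of another horse assembly, so no positions or sequences are given. Alternatives were the block, no minimum fold change, other filters, back-transformed values with a pseudocount of 1 or 0.5, quantile normalisation, median centring, no trend, and leaving out each library or line.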

Additional observations from a re-analysis of the deposited data

Results flagged for a closer look

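Among the named genes 61 sets of 5 libraries were examined for a value that stood apart, and 2 held one, where chance gives about 3.05 (1 in 20). Neither concerned an endothelin gene. CDH1, the gene of E-cadherin, was at 10.64 in line 4 with PF-06650833 alone, against 9.11 to 9.47 in the other lines. GATA2 was at 11.60 in line 4 with IL-1β plus PF-06650833, against 12.74 to 13.10 in the other lines, which corresponds to 3080 normalised counts against 6820 to 8770.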

How the results depend on the processing

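EDNRA, EDNRB and ECE1 were called as higher under all 24 alternatives, with log2 fold changes of 2.07 to 2.87, 4.66 to 5.33 and 1.58 to 1.99. The number of members called was 3, or 4 where leaving out line 3 added EDN1. EDN1 kept its sign, from -1.18 to -0.52 when a library or a line was left out, and was -0.91 on log2(normalised count + 1 or 0.5). EDN2 ranged from -0.50 to 0.12 over those fits, and its sign turned only without line 5. EDN3 could be fitted only without the filter on low values (log2 fold change 0.47, adjusted p = 0.0438 by limma), under the minimum fold change and on at most 2 reads per library. With the replicate block 1486 genes were called in place of 1202, and 24 of the 95 tested pathway genes in place of 17, and no member changed its call. Without a minimum fold change 2782 genes and 27 pathway genes were called. With a library or a line left out, 762 to 1422 genes and 10 to 19 pathway genes were called. Leaving out lines 1, 2 or 5 gave the fewest genes, with 762, 790 and 777. Beside leaving out libraries, the calls of RGS2, TIMP1 and BDKRB2 were also lost without the mean-variance trend, those of RGS2 and BDKRB2 without the filter on low values, and that of RGS2 on log2(normalised count + 1 or 0.5). The cause of these changes was not tested. Depth limits EDN2 and EDN3, which had 0 to 22 estimated reads per library.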

Other observations

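Other vasoactive peptide systems were examined for comparison, with 17 of 30 listed genes in the fit and 4 called by limma, 3 as higher and 1 as lower in the IL-1β group, where 6.68% of all tested genes were called. NPY, the gene of neuropeptide Y, a vasoconstrictor peptide of sympathetic nerves, averaged 5.77 ± 0.31 in the inhibitor group and 9.14 ± 1.09 in the IL-1β group (SD, n = 5 each, log2 values) and rose by 3.37 (standard error 0.45, adjusted p = 8.93e-04 by limma). Both bradykinin receptor genes were called as higher, BDKRB1 by 2.23 (standard error 0.60, adjusted p = 0.0288) and BDKRB2 by 2.36 on the log2 scale (standard error 0.72, adjusted p = 0.0478). They were higher in all 5 lines but their groups overlapped, and leaving out 1 library ended the call of BDKRB1 in 6 of 10 fits and that of BDKRB2 in 8, with log2 fold changes of 1.89 to 2.29 and 1.87 to 2.50. Only the fits without line 1 or 2 in the inhibitor group or line 3 or 4 with IL-1β kept BDKRB1, and those without line 2 in the inhibitor group or line 4 with IL-1β kept BDKRB2. ADM2, the gene of intermedin, fell by 2.08 (standard error 0.34, adjusted p = 0.00248). It had only 4.94 to 24.6 normalised counts with IL-1β, and its fold change ran from -3.22 to -2.05 over the alternatives that kept all libraries. The angiotensin receptor gene AGTR1 was at 6.70 ± 0.92 (SD, n = 5) against 6.06 ± 0.88 (SD, n = 5), and the natriuretic peptide receptor gene NPR3 at 9.76 ± 0.85 against 9.89 ± 0.79, and neither was called. ADM, the gene of adrenomedullin, was at 8.32 ± 0.99 against 9.58 ± 1.27 (adjusted p = 0.20) and was called with the replicate block (log2 fold change 1.26, adjusted p = 0.0119).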
